A study of Mus musculus with 384 samples.

Results

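The genes described here are 9 that mark alveolar fibroblasts, or the lipid-storing subset of these cells called lipofibroblasts, in the mouse lung: Tcf21, Npnt, Vcam1, Cd34, Slc36a2, Inmt, Ces1d, Plin2 and Limch1. They were listed by name, not picked by a threshold, and all 9 were present among the 23422 genes with counts and among the 22276 genes with values for the cells that the authors kept. Cells were sorted from the lungs of 2 mice of each of 2 lines, and the full-length cDNA of each cell was sequenced. Lgr5 mice carried Lgr5-IRES-CreERT2 with the Rosa26-lox-stop-lox-TdTomato reporter, so that after tamoxifen a cell that had used the Lgr5 promoter, and its progeny, kept the red label. Lgr6 mice carried Lgr6-EGFP-IRES-CreERT2, and their cells were sorted for green fluorescence, which a cell has while it uses the Lgr6 promoter. The mice of most experiments were 7 to 10 weeks old, and the sort left out cells stained for CD31, CD45, CD11b or TER119.

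Alveolar fibroblasts lie in the walls of the alveoli, next to the epithelium, and build the matrix that holds the walls open. Many of them carry the receptor Pdgfra on their surface, and those that store lipid droplets and retinoids are called lipofibroblasts. Other mesenchymal cells of the lung, such as the myofibroblasts of the alveolar ducts, the smooth muscle of airways and vessels, and the fibroblasts of the adventitia, use different sets of genes.

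Of 380 single-cell wells the authors kept 29 and 28 from Lgr5 mice 1 and 2 and 50 and 75 from Lgr6 mice 1 and 2. The mouse was taken as the replicate, so that each line had 2. Summed counts over the kept cells were 9874249 and 13198680 for the Lgr5 line, against 28875278 and 124650544 for the Lgr6 line. A count is a read and not a molecule, since the cDNA was amplified without molecular identifiers, so every interval and floor given here covers counting error only. A cell was called Pdgfra-positive where its Pdgfra level, the deposited log2(TPM + 1), was at least 1, and Pdgfra-zero where it was 0. There were 21 Pdgfra-positive cells (4, 2, 7 and 8 in Lgr5 mice 1 and 2 and Lgr6 mice 1 and 2) and 23, 26, 43 and 67 Pdgfra-zero cells. Just inside the limit the lowest Pdgfra levels were 1.2, 1.59 and 1.6, from 1, 1 and 2 counts. The 2 cells of Lgr5 mouse 1 just outside it, at 0.3 and 0.55, held 1 count each and were in neither group. Of the Pdgfra-zero cells, 4 held 1 to 3 Pdgfra counts, at a level of 0. Lgr6 itself had 0 counts in the Pdgfra-positive cells of both Lgr6 mice. It had a count in 13 of 43 and 26 of 67 Pdgfra-zero cells of these mice. In Lgr5 mice 1 and 2, 0 of 4 and 2 of 2 Pdgfra-positive cells held an Lgr6 count.

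Each of the 9 genes was found in a larger share of the Pdgfra-positive cells than of the Pdgfra-zero cells. The share in the Pdgfra-zero cells was 11.3% or lower for 6 genes, and higher for Npnt, Plin2 and Ces1d. Inmt, an enzyme that methylates indole amines such as tryptamine, had the highest level. It was at a level of 1 or more in 16 of 21 Pdgfra-positive cells (76.2%) and in 12 Pdgfra-zero cells (7.55%). Its mean level in the Pdgfra-positive cells was 8.14, 6.48, 10.26 and 11.02 in Lgr5 mice 1 and 2 and Lgr6 mice 1 and 2, against 1.56, 1.23, 0.02 and 0.25 in the Pdgfra-zero cells of the same mice. In all 4 mice the Pdgfra-positive mean was the higher, and the lowest of these means lay above the highest Pdgfra-zero mean. Summed per mouse, Inmt took 163203 counts in the 8 Pdgfra-positive cells of Lgr6 mouse 2 and 361 counts in its 67 Pdgfra-zero cells.

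Slc36a2, a transporter of small amino acids that is driven by protons, was the member with no count at all in the Pdgfra-zero cells. It was present in 11 of 21 Pdgfra-positive cells and in 0 Pdgfra-zero cells, a count of 0 that allows a share of cells with a count of up to 1.89%. This limit covers counting error only, with the cells of the 4 mice pooled. The Pdgfra-positive cells held 92, 12, 62 and 1669 counts of it in Lgr5 mice 1 and 2 and Lgr6 mice 1 and 2. In the 3 mice that had 3 or more cells in each group, it was higher in the Pdgfra-positive cells by a log2 fold change of at least 7.33, 7.2 and 12 (Lgr5 mouse 1 and Lgr6 mice 1 and 2), against a floor of 3 counts per mouse.

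Npnt and Vcam1 act at the cell surface and in the matrix. Npnt encodes nephronectin, a matrix protein that integrins bind, and it was at 1 or more in 18 of 21 Pdgfra-positive cells and in 31 Pdgfra-zero cells (19.5%). Its mean level was 4.52, 4.57, 8.1 and 8.13 in the Pdgfra-positive cells of Lgr5 mice 1 and 2 and Lgr6 mice 1 and 2, and 0.64, 0.83, 1.48 and 1.29 in the Pdgfra-zero cells. All 15 Pdgfra-positive cells of the Lgr6 line held it. Vcam1, an adhesion molecule for leukocyte integrins, was at 1 or more in 16 of 21 Pdgfra-positive cells and in 5 Pdgfra-zero cells (3.14%). All 5 of those Pdgfra-zero cells came from the Lgr5 mice, 3 from mouse 1 and 2 from mouse 2. In the Lgr6 mice the Vcam1 counts were 512 and 11325 in the Pdgfra-positive cells and 0 and 1 in the Pdgfra-zero cells.

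Tcf21 and Cd34 were found in fewer of the Pdgfra-positive cells. Tcf21, a transcription factor of the basic helix-loop-helix class that lung mesenchyme needs in development, was at 1 or more in 10 of 21 of them and in 2 Pdgfra-zero cells (1.26%). Its mean level in the Pdgfra-positive cells was 3.66, 3.51, 2.71 and 1.31 in Lgr5 mice 1 and 2 and Lgr6 mice 1 and 2, and it was 0.2 or lower in the Pdgfra-zero cells of each mouse. The counts behind it were small, with 195 in all Pdgfra-positive cells. Cd34, a surface sialomucin known from blood progenitors, vessels and some fibroblasts, was also at 1 or more in 10 of 21 Pdgfra-positive cells and in 2 Pdgfra-zero cells. These 10 cells were 1 of 4 in Lgr5 mouse 1, 0 of 2 in Lgr5 mouse 2, 5 of 7 in Lgr6 mouse 1 and 4 of 8 in Lgr6 mouse 2. With 2 cells the Lgr5 mouse 2 value says little.

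Limch1, an actin-associated protein, was at 1 or more in 12 of 21 Pdgfra-positive cells (57.1%) and in 18 Pdgfra-zero cells (11.3%). Its mean level was 3.68, 2.59, 4.72 and 5.33 in the Pdgfra-positive cells, against 0.09, 0.57, 0.97 and 0.55 in the Pdgfra-zero cells of Lgr5 mice 1 and 2 and Lgr6 mice 1 and 2. Each of the 4 mice had the higher mean in its Pdgfra-positive cells.

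**Figure D1:**
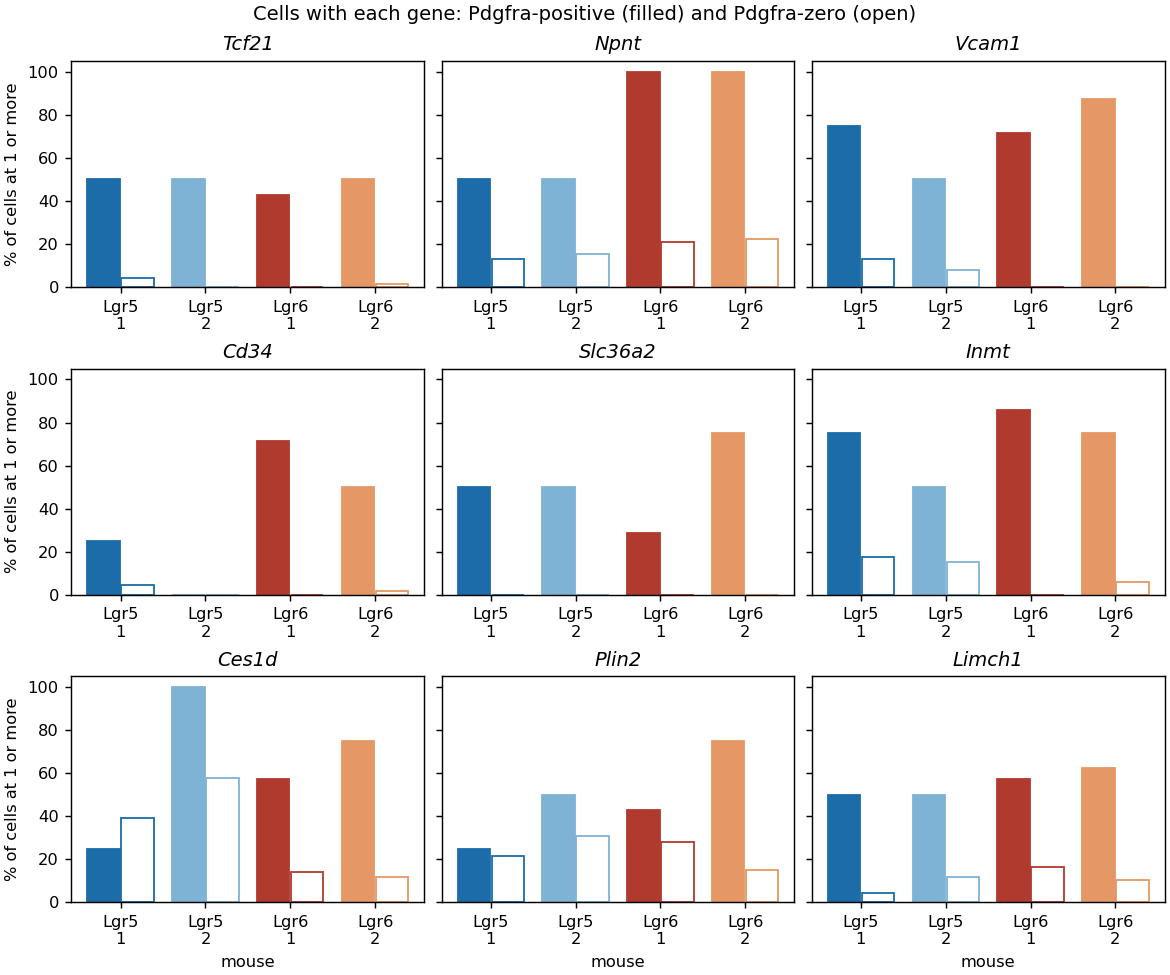
Share of cells in which each gene was at a log2(TPM + 1) of 1 or more, in percent, for each mouse; filled bars are Pdgfra-positive cells (4, 2, 7 and 8 cells) and open bars Pdgfra-zero cells (23, 26, 43 and 67 cells). Slc36a2 had no open bar in any mouse, and Ces1d in Lgr5 mouse 1 had the higher open bar.

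Ces1d and Plin2, the 2 members with a direct part in lipid handling, were spread more evenly. Plin2, which coats lipid droplets, was at 1 or more in 11 of 21 Pdgfra-positive cells (52.4%) and in 35 Pdgfra-zero cells (22%). Its mean level was 2.14, 4.47, 3.77 and 5.14 in the Pdgfra-positive cells and 1.16, 1.4, 2.04 and 1.13 in the Pdgfra-zero cells of Lgr5 mice 1 and 2 and Lgr6 mice 1 and 2. In summed counts, which weigh deep cells more, it had 26.5 CPM in the Pdgfra-positive and 49.9 CPM in the Pdgfra-zero cells of Lgr6 mouse 1, so the order in this mouse depends on how cells are weighed. Ces1d, a carboxylesterase that splits lipid esters, was at 1 or more in 13 of 21 Pdgfra-positive cells (61.9%) and in 38 Pdgfra-zero cells (23.9%). Its share in the Pdgfra-zero cells differed by line, with 9 of 23 and 15 of 26 for the Lgr5 line against 6 of 43 and 8 of 67 for the Lgr6 line. Its CPM was 739 in the Pdgfra-positive and 46.6 in the Pdgfra-zero cells of Lgr6 mouse 2, while it was lower in the Pdgfra-positive cells of both Lgr5 mice, slightly in mouse 1 and at 211 against 697 CPM in mouse 2.

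Among the Pdgfra-positive cells that held a gene, the median level per length of transcript was 13.52 for Inmt, 9.54 for Ces1d, 9.03 for Npnt, 8.41 for Plin2, 8.31 for Vcam1, 8.17 for Limch1, 8.15 for Cd34, 6.73 for Slc36a2 and 5.53 for Tcf21, all as log2(TPM + 1). The ranges over cells of each gene and the next in this order overlapped, Inmt and Ces1d among them.

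To test the difference across mice, counts were summed per mouse and group of cells and fitted with the mouse as a block in those 3 mice, which leaves out Lgr5 mouse 2. In Lgr6 mouse 1 the deepest of the 7 Pdgfra-positive cells held 4060496 of their 4944052 counts. The Pdgfra-positive sum of that mouse, and each CPM from it, thus rests mostly on this cell. Slc36a2, Ces1d, Plin2 and Limch1 were at 0 in it. All 9 genes passed the filter on low counts, and genes such as Slc36a2 and Vcam1 passed it through the Pdgfra-positive sums. With edgeR (quasi-likelihood test, Benjamini-Hochberg adjustment over 11605 genes), 0 of the 9 passed an adjusted p of 0.05, where 0.0259% of all genes did. At an unadjusted p under 0.05, 899 genes lay (7.75%), and those of them higher in the Pdgfra-positive cells made up 1.34% of all genes. Of the 9 members 7 were among the latter, all but Ces1d and Plin2, with an unadjusted p from 0.00273 to 0.0182. This count is a description and is not read against that share. Genes with few counts in the Pdgfra-zero cells, such as Tcf21, Vcam1 and Slc36a2, could enter the fit only by being high in the Pdgfra-positive cells. DESeq2 on the same sums called 1173 genes (6.24%), among them all members but Ces1d and Plin2, and limma on the mean level per mouse called 204 (1.76%) with the same 7 members. The fitted difference was above 0 for each of the 9 genes. Tcf21, Npnt, Vcam1, Cd34, Slc36a2, Inmt and Limch1, which is 7 of 9, had the higher CPM in the Pdgfra-positive cells of all 3 mice, as 7.71% of the tested genes did, with the same limit for those that entered through the Pdgfra-positive sums.

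Over the 3 mice together, the largest fitted differences of members with counts on both sides were those of Vcam1 and Inmt. Without Lgr6 mouse 2 that of Cd34 was the largest of these, at 10.45. Vcam1 had a log2 fold change of 12.25 (SE 2.71, n = 3 mice, edgeR quasi-likelihood test, Benjamini-Hochberg adjusted p = 0.544). The value for Inmt was 11.39 (SE 2.9), for Cd34 8.35 (SE 2.0), for Tcf21 8.05 (SE 2.62), for Limch1 6.07 (SE 1.78) and for Npnt 4.25 (SE 1.0), all at the same adjusted p. The 2 lipid genes were nearer to 0, with 1.69 (SE 0.98) for Ces1d and 1.56 (SE 1.24) for Plin2, and each was higher in 2 of 3 mice. In the 2 Lgr6 mice alone, Vcam1 and Inmt passed the threshold, with 15.85 (SE 1.62) and 13.67 (SE 1.35). They did not pass without Lgr6 mouse 1 (10.72 and 8.09), without Lgr6 mouse 2 (9.21 and 9.89) or with all 4 mice (9.93 and 9.31). In the Lgr6 mice alone 21 genes were called (0.167%), and the fold change of Vcam1 there rests on 0 and 1 counts in the Pdgfra-zero sums. With cells thinned to a common depth in all 3 mice, edgeR called 30 genes (0.343%), among them Npnt, Vcam1, Inmt and Limch1. Thinning also left out 1, 13 and 2 kept cells of Lgr5 mouse 1 and Lgr6 mice 1 and 2. It also left fewer genes to test, 8748 in place of 11605. Depth, cells and genes tested changed together, so their parts in the gain in calls cannot be told apart.

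**Figure D2:**
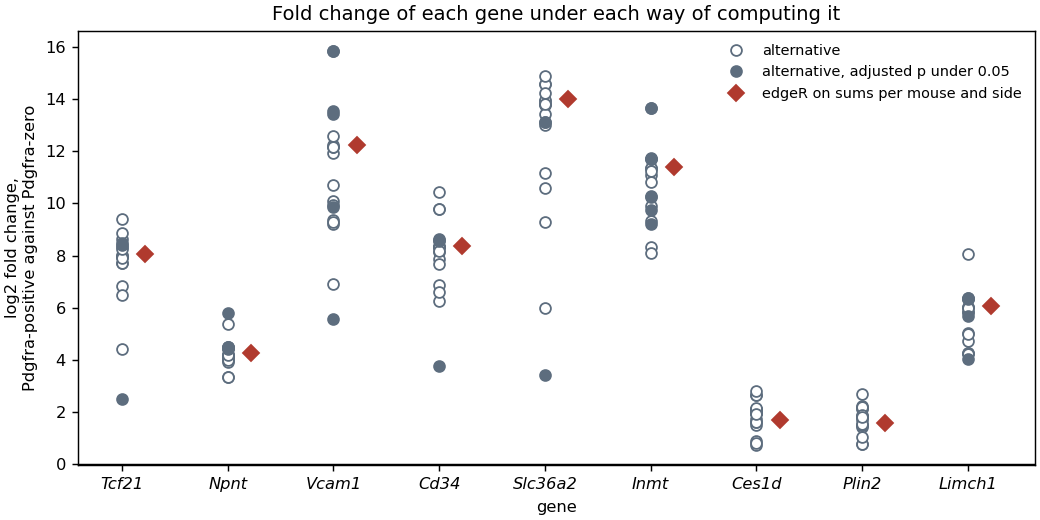
Log2 fold change of each gene, Pdgfra-positive against Pdgfra-zero cells, from the edgeR fit on sums per mouse (diamonds) and from each other way of computing it (circles, filled where the adjusted p was under 0.05). All points lie above 0; those of Slc36a2 rest on 0 counts in the Pdgfra-zero cells and depend on the small count that each tool adds.

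The genes that did pass were Hsd11b1, Lyz2 and Pdgfra itself, which chose the groups and is a description only. Hsd11b1, an enzyme that activates glucocorticoids and is listed among other alveolar fibroblast genes, was higher in the Pdgfra-positive cells by 14.93 (SE 0.97, edgeR quasi-likelihood test, Benjamini-Hochberg adjusted p = 0.00713). Its counts were 610, 2531 and 26229 in the Pdgfra-positive cells of Lgr5 mouse 1 and Lgr6 mice 1 and 2, and 0, 1 and 4 in the Pdgfra-zero cells. Like Vcam1 and Slc36a2, it could enter the fit only by being high in the Pdgfra-positive cells, so its call is a description. The size of its fold change rests on the few Pdgfra-zero counts. Without Lgr6 mouse 2, Hsd11b1 was at 14.03 (SE 1.73) and just missed the threshold. Lyz2, the lysozyme of myeloid cells that alveolar type II cells also make, was lower by a log2 fold change of -16.03 (SE 0.83, Benjamini-Hochberg adjusted p = 0.0029 in the same edgeR quasi-likelihood test), with 0, 0 and 1 counts in the Pdgfra-positive cells. Without the cells high in Sftpc that are described below, Lyz2 was at -7.71 (SE 2.55) and was no longer called.

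Whether a gene's difference by Pdgfra was the same in both lines was tested as an interaction over the 4 mice. In edgeR's quasi-likelihood test 0 of 11020 genes passed, none of the 9 members among them (0.0% of all genes). DESeq2 called 199 genes (1.01%), Inmt among them, and 382 genes (3.47%) had an unadjusted p under 0.05 in edgeR. The difference in log2 fold change, Lgr5 minus Lgr6, was -8.23 (SE 1.53) for Inmt and -8.79 (SE 1.66) for Vcam1 (edgeR quasi-likelihood test, Benjamini-Hochberg adjusted p = 1.0 for each). Both groups of cells enter this value. Inmt was at 46.9 and 16.5 CPM (Lgr5) against 0.0384 and 3.17 CPM (Lgr6) in the Pdgfra-zero cells, and at 920 and 1572 against 4541 and 10586 CPM in the Pdgfra-positive cells. Vcam1 had 9 and 21 counts (Lgr5) against 0 and 1 (Lgr6) in the Pdgfra-zero cells, and 83.2 and 252 against 140 and 735 CPM in the Pdgfra-positive cells. For Inmt the difference between the lines was -7.14 without Lgr5 mouse 1 and -9.32 without Lgr5 mouse 2. It was -6.33 without Lgr6 mouse 1 and -10.96 without Lgr6 mouse 2. Each of these fits leaves 1 mouse in a line, which is assumed to vary like the others, so no calls from them are read.

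The Pdgfra-positive cells were not uniform, and the 9 genes were found together in the same cells. At a level of 1 or more, 15 kept cells held 5 or more of the 9 genes, where independent shares within each mouse would give 1.01. Of these 15 cells 14 were Pdgfra-positive, 2 in Lgr5 mouse 1, 1 in Lgr5 mouse 2, 5 in Lgr6 mouse 1 and 6 in Lgr6 mouse 2. This is 66.7% of the Pdgfra-positive cells and 0.629% of the Pdgfra-zero cells. All 9 genes were present in 5 cells, 2 of Lgr6 mouse 1 and 3 of Lgr6 mouse 2. At the other end, 72 cells held none of the genes, where independence gives 34.8, and each of them was Pdgfra-zero. These are descriptions with no test, since cells of a mouse are not replicates.

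**Figure D3:**
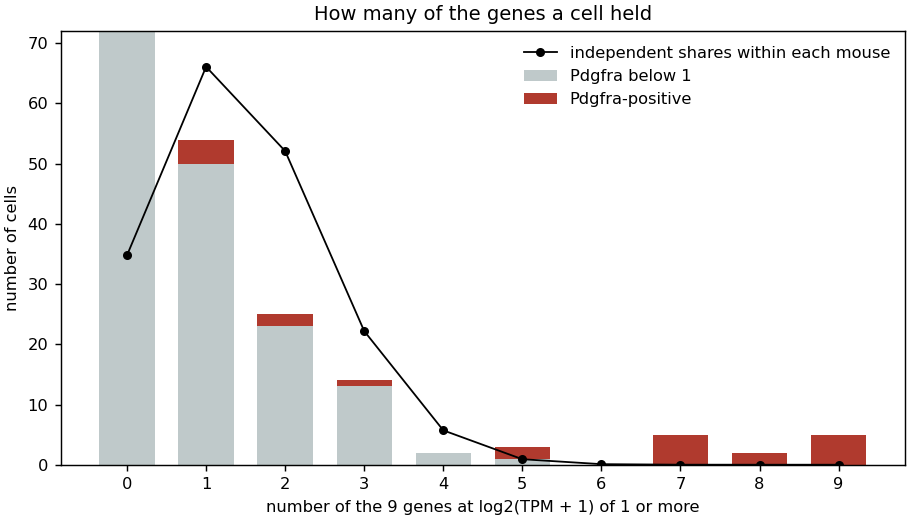
Number of kept cells (vertical axis) by how many of the 9 genes were at a log2(TPM + 1) of 1 or more (horizontal axis); red marks Pdgfra-positive cells, grey all others, and the line what independent shares within each mouse would give. Every cell with 7 or more of the genes, 12 in all, was Pdgfra-positive.

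Pairs of genes showed the same pattern. Tcf21 and Slc36a2 shared 9 cells against 0.763 under independence, and Vcam1 and Slc36a2 shared 11 cells against 1.28. Each of the 11 cells with Slc36a2 also held Npnt, Vcam1 and Inmt. Inmt and Vcam1 shared 17 cells against 3.52, which is 60.7% of the 28 cells with Inmt and 81% of the 21 with Vcam1. Ces1d and Plin2 shared 29 cells against 14.8, and 17 of the 29 were Pdgfra-zero, so this pair was the one most often found together outside the Pdgfra-positive cells. Within the cells, levels followed each other more closely for some pairs than for others. Pearson's r over the kept cells, centred on each mouse's mean, was 0.8 between Inmt and Vcam1 and 0.74 between Tcf21 and Slc36a2. It was 0.39 between Ces1d and Plin2, and lowest between Cd34 and Plin2, at 0.15. These values share the libraries and depth of the cells, and no p is given.

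The genes most like each member over the kept cells, by the same r among 13953 genes found in at least 5 cells, were for the most part not members. Hsd11b1 was the most like Vcam1 (r = 0.88) and Slc36a2 (r = 0.87), and Dpep1, a dipeptidase, was the most like Inmt (r = 0.87). Ablim3 was the most like Cd34 (r = 0.77), Cxcl14, a chemokine, the most like Limch1 (r = 0.66), and Inmt the most like Npnt (r = 0.65). For Ces1d and Plin2 the closest gene was Mme in each case, a peptidase of the cell surface, with a lower r of 0.55 and 0.49.

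**Figure D4:**
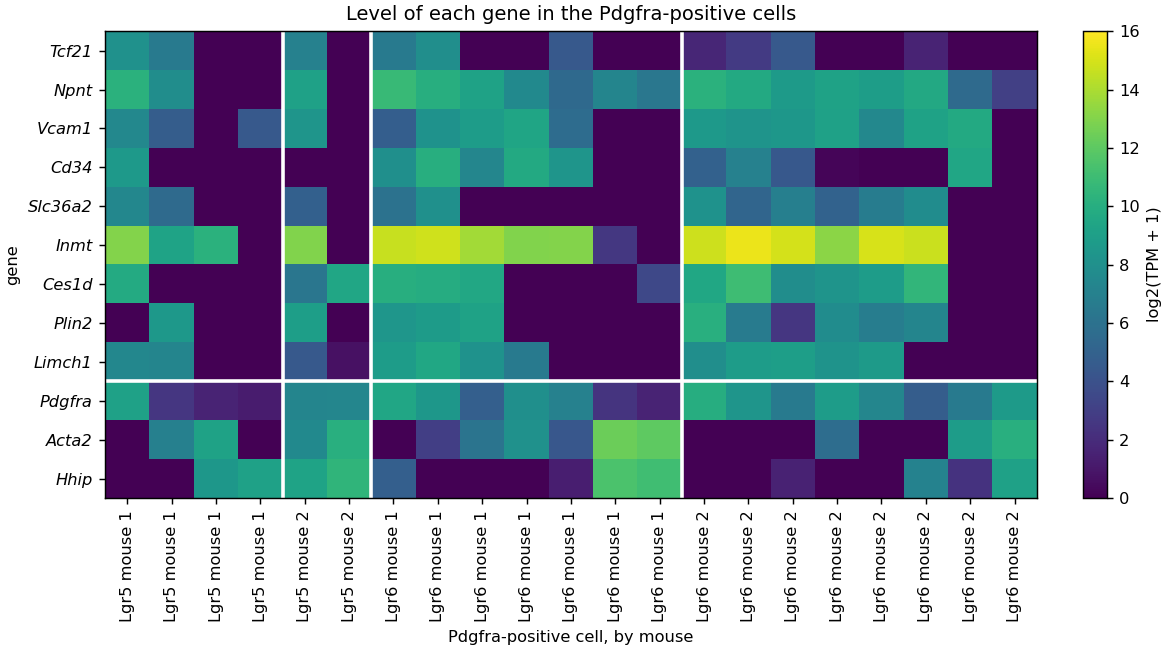
Level of the 9 genes, and below the white line of Pdgfra, Acta2 and Hhip, as log2(TPM + 1) by colour in the 21 Pdgfra-positive cells (columns, grouped by mouse). Inmt is brightest in the cells that hold most of the genes, and the cells with few of them have Hhip.

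The 7 Pdgfra-positive cells with 4 or fewer of the genes differed from the other 14 in their other markers. The 7 were also shallower, with a median of 213780 counts against 985921.5 in the 14, and the part of depth was not tested. In Lgr5 mouse 1 those of the 7 had 213780 and 158583 counts, against 396273 and 516523 in the others. The totals in Lgr5 mouse 2 were 205383 against 338524. In Lgr6 mouse 1 those of the 7 had 445348 and 109212 counts, while a cell with all 9 genes had 45211. In Lgr6 mouse 2 the totals of both sets overlapped. Hhip, a hedgehog-binding protein that marks duct myofibroblasts, was at 1 or more in 7 of the 7 and in 5 of the 14. Its level ran from 2.37 to 11.45 in the 7 and from 0 to 9.31 in the 14, so the ranges overlapped. The cell of the 7 at 2.37, from Lgr6 mouse 2, had Pi16, listed for adventitial fibroblasts, at 6.34. A cell of the 14, from Lgr6 mouse 1, had Pi16 at 8.43. Acta2, the smooth muscle actin, had a median level of 10.08 in the 7 and of 1.48 in the 14, and 4 of the 7 and 0 of the 14 were at 10 or more. The median Pdgfra level was 2.39 in the 7 and 7.67 in the 14. Without the 4 cells high in Acta2, a step chosen after seeing the data, edgeR called 17 genes in place of 3, and again 0 of the 9 members. The cell of Lgr5 mouse 2 among the 4 was in neither fit. The part of these cells in the difference by Pdgfra was not tested further.

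Some of the Pdgfra-zero cells with Ces1d or Plin2 were high in Sftpc. In 11 Pdgfra-zero cells, 1, 2, 3 and 5 in Lgr5 mice 1 and 2 and Lgr6 mice 1 and 2, the level of Sftpc, the surfactant protein that defines alveolar type II cells, was 16 or more, a limit set after seeing the data. Ces1d and Plin2 were each at 1 or more in 10 of these 11 cells, with neither in the cell of Lgr5 mouse 1, Npnt in 7, Limch1 in 2 and Inmt in 1, while Tcf21, Vcam1, Cd34 and Slc36a2 were in 0. The same 11 cells held Sftpb (11 of 11), Epcam and Lamp3 (10 of 11 each), and Col1a1 in 0. Of the other Pdgfra-zero cells, 28 held Ces1d (18.9%), 25 Plin2 and 24 Npnt. Among these, Ces1d was in 9 of 22 and 13 of 24 Lgr5 cells, against 3 of 40 and 3 of 62 Lgr6 cells, by mouse. Without the 11 cells high in Sftpc, edgeR called 2 genes between the groups, Hsd11b1 and Pdgfra, with 0 of the 9 members. Of the 11 cells, the 2 of Lgr5 mouse 2 were in neither fit.

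Lists of other genes set the members beside their cell types. Of the other alveolar fibroblast genes 14 of the 16 tested were fitted higher in the Pdgfra-positive cells, and 1 of them, Hsd11b1, passed, with the limit given above. The median log2 fold change of this list was 3.86 against -0.95 over all genes, of which 29% were fitted higher. The summed level of the list was 2187, 3282 and 6661 CPM in the Pdgfra-positive cells of Lgr5 mouse 1 and Lgr6 mice 1 and 2. It was 788, 826 and 640 CPM in the Pdgfra-zero cells, with Mfap4 the most abundant. Of the 11 retinoid storage and synthesis genes 7 were tested. All 7 were fitted higher, with a median of 4.11 and 0 called. Lrat, which makes the retinyl esters that lipofibroblasts store, was at 1 or more in 11 of 21 Pdgfra-positive and 2 Pdgfra-zero cells. In this list and the one before it, genes with few counts in the Pdgfra-zero cells could enter the fit only by being high in the Pdgfra-positive cells. How many were fitted higher is therefore a description. Lipid droplet, uptake and turnover genes were fitted higher in 3 of 16, with a median of -2.69 and 0 called. Their summed level in the Pdgfra-positive against the Pdgfra-zero cells was 229.5 against 793.1 CPM in Lgr5 mouse 1. It was 986 against 953 CPM in Lgr6 mouse 1, and 608 against 2707 CPM in Lgr6 mouse 2. The Pdgfra-zero cells include those high in Sftpc, most of which held Plin2, and the list was not fitted without them. Of this list Plin1 and Cidec were at 0 in all kept cells, and Pparg, a regulator of fat storage, was in 2 Pdgfra-positive cells and 1 Pdgfra-zero cell.

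Lists of other cell types went in both directions, and of their genes Lyz2 alone was called by edgeR. Duct myofibroblast genes were fitted higher in 0 of 9 (median -3.13) and smooth muscle genes in 0 of 8 (median -4.73). Adventitial fibroblast genes were fitted higher in 3 of 8 (median -0.55), with a summed level of 1867 and 896 CPM in the Pdgfra-positive against 766 and 460 CPM in the Pdgfra-zero cells of Lgr6 mice 1 and 2, and the reverse order in Lgr5 mouse 1. Pi16, a defining gene of that list, was in 2 Pdgfra-positive and 3 Pdgfra-zero cells. The 2 were a cell of Lgr6 mouse 2, at 6.34, and the deepest Pdgfra-positive cell of Lgr6 mouse 1, at 8.43. The latter held 4060496 of the 4944052 counts in the Pdgfra-positive sum of its mouse, so the level of 1867 CPM rests mostly on it. Pericyte genes were fitted higher in 1 of 6, alveolar type I genes in 2 of 5, mesothelial genes in 0 of 1, club cell genes in 1 of 1 and erythroid genes in 0 of 1. The summed type I level was higher in the Pdgfra-positive cells of all 3 mice tested, with 484 against 297 CPM in Lgr6 mouse 2, and its median was -0.42. Club cell genes were at 2369 CPM in the Pdgfra-positive cells of Lgr5 mouse 1, above its Pdgfra-zero cells, at 98.8 against 13.2 CPM in Lgr6 mouse 2 and at 0.274 against 10.7 CPM in Lgr6 mouse 1, with Scgb1a1 the most abundant. Alveolar type II genes were fitted higher in 0 of 7 (median -7.59), and their summed level was 90.3 and 33.3 CPM in the Pdgfra-positive against 1973 and 15905 CPM in the Pdgfra-zero cells of Lgr6 mice 1 and 2, with Sftpc the most abundant. In Lgr5 mouse 1 it was 75692 CPM in the Pdgfra-zero cells and far lower in the Pdgfra-positive cells. Immune genes were fitted higher in 0 of 2, Lyz2 being the one called, a call that was lost without the cells high in Sftpc. No endothelial gene could be tested. The authors kept cells low in Ptprc and Pecam1, so that the absence of these 2 genes is a product of the filter. The general mesenchyme genes were fitted higher in 5 of 5 with a median of 0.56, and Col1a1 was in 19 of 21 Pdgfra-positive cells and in most Pdgfra-zero cells.

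Between the lines, Ces1d had the largest difference in mean level of the 9 genes in the kept cells. Its mean was 3.69 and 4.98 for the Lgr5 line against 1.74 and 1.62 for the Lgr6 line. Its CPM ran from 32.4 in Lgr6 mouse 1 to 686 in Lgr5 mouse 2, and the lines did not overlap. In CPM this held for 7 of the 9 genes, all but Tcf21 and Slc36a2, and for 42.9% of all genes tested. Ces1d was the one of the 7 that was higher in the Lgr5 line (18.9% of all genes), and the other 6 were higher in the Lgr6 line (23.9%). For Inmt the means were 2.36 and 1.61 against 1.46 and 1.4, for Npnt 1.17 and 1.1 against 2.41 and 2.02, and for Limch1 0.58 and 0.72 against 1.49 and 1.06. In the mean level of these 4 of 9 genes the mice of the lines did not overlap, as in 42.7% of all genes, so the count is near the background. Ces1d and Inmt were higher in the Lgr5 line (26.8% of all genes) and Npnt and Limch1 in the Lgr6 line (15.9%). Tcf21, Vcam1, Cd34, Slc36a2 and Plin2 overlapped, with means between 0 and 2.28. In shares of cells with a count, 5 of the 9 did not overlap, as in 40.8% of all genes. For the mean level, the exact two-sided permutation test gave p = 0.333 for each of the 4 genes, the smallest that 2 mice against 2 allow.

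**Figure D5:**
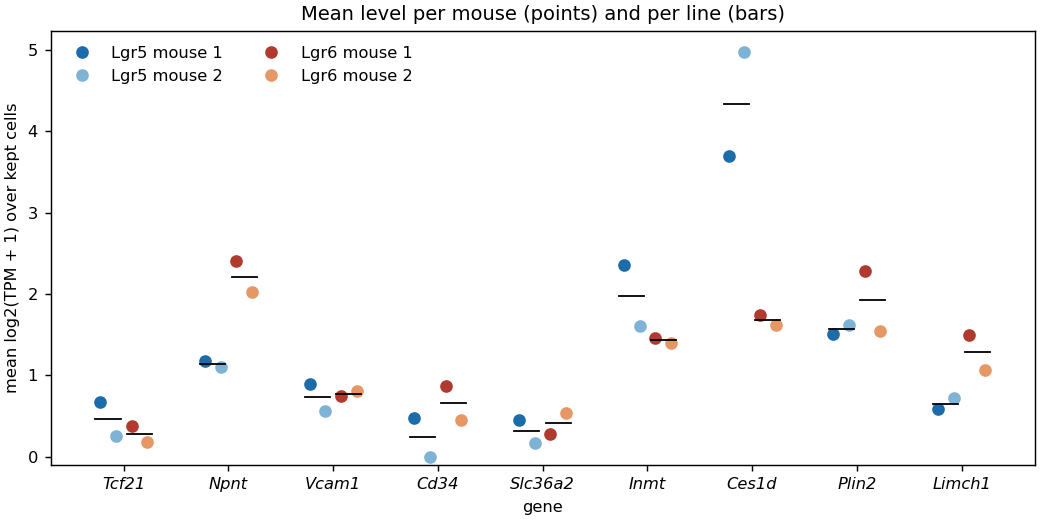
Mean log2(TPM + 1) of each gene over the kept cells of each mouse (points; blue Lgr5, red and orange Lgr6) with the mean of each line (black bars; 2 mice each). Ces1d has both Lgr5 points at 3.69 or higher and both Lgr6 points at 1.74 or lower.

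Calls between the lines from sums per mouse depended on the tool. edgeR's quasi-likelihood test called 0 of 14086 genes, none of the 9 among them (0.0% of all genes), with 1312 at an unadjusted p under 0.05 (9.31%). DESeq2 called 963 (4.88%) with none of the 9 members, limma on the mean level 639 (4.54%), Ces1d among them, and edgeR without its filter on low counts called 408 (2.07%), Inmt and Ces1d among them. The log2 fold change, Lgr5 against Lgr6, was 2.36 (SE 0.88, n = 2 mice a line) for Ces1d (edgeR quasi-likelihood test, Benjamini-Hochberg adjusted p = 0.458), and from 1.25 to 3.75 with a mouse left out. Inmt went opposite ways with the weight of the cells. In sums it was lower in the Lgr5 mice, with a log2 fold change of -2.79 (SE 0.55), and its mean level was higher there. The Pdgfra-positive cells held 182443 of its counts and the Pdgfra-zero cells 953, and without the Pdgfra-positive cells the log2 fold change was 4.06 (SE 2.01). There were 6 Pdgfra-positive cells among 57 kept Lgr5 cells and 15 among the 50 and 75 kept Lgr6 cells. Their share was 13.8% and 7.14% in Lgr5 mice 1 and 2 and 14% and 10.7% in Lgr6 mice 1 and 2, so the lines overlapped in it. Summed levels of several other lists did not overlap between the lines either, with no gene called by edgeR. Other alveolar fibroblast genes were at 957 and 930 CPM in Lgr5 sums against 1199 and 1453 in Lgr6 sums. Of these genes 13 of 17 were fitted lower in the Lgr5 line, with a median log2 fold change of -1.25. Over all genes the median was -0.05, and 48.6% were fitted higher in the Lgr5 line. Alveolar type II genes were at 59314 and 36503 CPM against 1852 and 14990, and club cell genes at 500 and 622 against 10.1 and 25.1. Smooth muscle genes were at 5090 and 1291 against 14744 and 13746 CPM, and erythroid genes, with Hbb-bh1 the most abundant, at 296 and 341 against 0.107 and 2.23 CPM. Hbb-bh1 was found in 4 and 2 Pdgfra-positive and 23 and 24 Pdgfra-zero cells of Lgr5 mice 1 and 2, and in 1 Pdgfra-zero Lgr6 cell. It was thus spread over nearly all Lgr5 cells of both groups. The part of these lists in the members' differences was not tested, and Ces1d was also found in cells high in Sftpc.

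The order of the lines depended on which wells were counted. Over all 380 single-cell wells, before the authors' filter, the mean level of Ces1d was 4.23 and 4.27 for the Lgr5 line and 2.0 or lower for both Lgr6 mice, in the same order as over the kept cells. Inmt was at 5.47 and 4.42 against 1.56 and 1.78, a larger difference than that of Ces1d. Limch1 turned over, at 1.99 and 1.61 against 1.1 and 1.36, and Npnt overlapped between the lines, at 2.6 and 2.09 against 1.87 and 2.16. Cd34 was 2.58 and 1.97 in the Lgr5 wells and 0.84 and 0.44 in the Lgr6 wells, and overlapped between the lines in the kept cells. Most genes behaved this way in the unfiltered wells. The line mean was higher in the Lgr5 line for 93.5% of all genes, and for all 9 members, and the lines did not overlap for 73.3% of all genes and 7 of the 9. In shares of wells with a count, it was higher for 96.9% of all genes and for all 9 members, and the lines did not overlap for 72.2% of all genes and all 9. The values over all wells are thus near the background and say little on the members. The filter kept 57 of 190 Lgr5 wells and took out 65 of 190 Lgr6 wells.

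The reads of a gene can be shared with a near copy, so the members were compared with all other transcripts over runs of 31 bases. Ces1d shared 6.34% of its runs with others, Ces1b first with 2.83%, and Slc36a2 4.03%, all with Slc36a1. Ces1b was found in 2 cells and Slc36a1 in 27, of which 0 held Slc36a2. Plin2 shared 5.16% and Cd34 4.97%, while Npnt and Inmt shared 0. The gene family of Ces1d was rare besides Ces1g, found in 28 cells, 6 of them with Ces1d. Among the relatives of Plin2, Plin3 was in most kept cells and Plin1 in 0.

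The 9 genes lie on 8 chromosomes. In GRCm38, Inmt is at chr6:55170626-55175043 on the minus strand and Plin2 at chr4:86648386-86670060 on the minus strand. RefSeq promoters of GRCm38.p6, from 250 bases before to 50 after the start of a transcript, were found for 6 of the 9 genes and numbered 9. Those of Inmt, whose counts lay nearly all in Pdgfra-positive cells, and of Plin2, spread over both groups, are shown since both hold the E-box CANNTG, the kind of site that Tcf21 and other basic helix-loop-helix factors bind. Capitals mark each E-box, and both lines read 5′ to 3′ on the minus strand, for Inmt from chr6:55174941-55175240 and for Plin2 from chr4:86670010-86670309.
Inmt: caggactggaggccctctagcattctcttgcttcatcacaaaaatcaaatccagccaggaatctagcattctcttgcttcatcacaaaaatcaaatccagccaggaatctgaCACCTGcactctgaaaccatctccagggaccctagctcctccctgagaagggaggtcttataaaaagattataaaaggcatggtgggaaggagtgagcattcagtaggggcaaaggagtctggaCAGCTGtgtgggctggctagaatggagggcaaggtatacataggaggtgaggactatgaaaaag
Plin2: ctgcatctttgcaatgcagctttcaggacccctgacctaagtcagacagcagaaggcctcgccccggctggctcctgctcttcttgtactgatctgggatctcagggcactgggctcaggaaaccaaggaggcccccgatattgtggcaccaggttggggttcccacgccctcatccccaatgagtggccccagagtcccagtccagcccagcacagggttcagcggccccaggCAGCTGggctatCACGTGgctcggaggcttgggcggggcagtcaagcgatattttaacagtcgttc
Each promoter holds 2 E-boxes, 1 of them in the form CAGCTG. On both strands, 6 of the 9 promoters held an E-box, against 72.3% of all 32851 promoters, and 2 held the CAGCTG form, which 16.3% of all do. The TATA box TATAAA was in 2 of the 9 (13.6% of all), among them that of Inmt, and the nuclear receptor motif AGGTCA in 4 (16.3%). The promoters of Tcf21 and Cd34 held none of the motifs searched. The NF-kB site, the direct repeat of AGGTCA with a spacer of 1 base, and the CArG box of serum response factor, searched by name, were in 0 of the 9, against 0.155%, 0.0396% and 1.63% of all.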

How the data were processed

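Per the labels, the authors aligned SmartSeq2 reads of each well with kallisto 0.43.0 to the mm10 transcriptome. Counts per gene were deposited for 384 wells, and log2(TPM + 1) both for these and for the cells kept by the authors, whose rule also asked for low Ptprc and Pecam1. The deposited TPM values are per length of transcript. The counts are whole numbers, probably rounded estimates, since kallisto gives fractions. Rn45s, a ribosomal RNA locus, took 35.1% of the counts of the kept cells.

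From the deposited counts, sums per mouse, or per mouse and group of cells, were tested with edgeR 4.0.16 (TMM, filterByExpr, quasi-likelihood test, Benjamini-Hochberg adjusted p of 0.05) in R 4.3.3. Alternatives were DESeq2 1.42.0, limma 3.58.1 on the deposited log2 values with pseudocounts of 1 and 0.1, other filters, scalings and sets of cells, cells thinned to 99000 reads, and each mouse left out in turn. The mouse is a block in the comparison by Pdgfra because both groups come from the same animals. Detection shares are of cells, and a floor is 3 counts.

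DESeq2 was first run on every gene above 0, as planned, and called 1173 genes by Pdgfra, 963 between the lines and 199 for the interaction. A run on the genes kept by filterByExpr was added after that count and an earlier count for the lines from these data had been seen, and it called 1172, 564 and 245. The first is the one given in the results. The limits on Sftpc and Acta2 and the fits without Rn45s were also chosen after seeing the data.

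The members and lists were chosen with earlier results of these data known. Named genes are the members, Pdgfra, Lgr5 and Lgr6, list genes past the threshold or most abundant, the relatives of members, and the gene most like each member. Mfap4, Lrat, Pparg, Pi16, Epcam, Lamp3, Col1a1, Sftpb, Cidec, Ptprc, Pecam1 and Rn45s were also named, some after their values were seen. The tests were tested on simulated data. Coordinates are from GENCODE vM21 on GRCm38 and promoters from RefSeq. Python 3.11.15, numpy 2.4.6, pandas 2.3.3, scipy 1.17.1 and matplotlib 3.10.9 were used.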

Additional observations from a re-analysis of the deposited data

Results flagged for a closer look

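The members were also present in wells that the comparisons did not use. Among the 198 single-cell wells that the authors removed, Inmt was at a log2(TPM + 1) of 1 or more in 97 wells, Ces1d in 89, Plin2 in 87, Limch1 in 80, Npnt in 78, Cd34 in 75, Tcf21 and Vcam1 in 52 each, and Slc36a2 in 42. Of the removed wells 79 held 5 or more of the 9 genes, 40 and 31 from the Lgr5 mice and 3 and 5 from the Lgr6 mice, and 53 of the 79 had Pdgfra at 1 or more. Of the 54 removed wells with Ptprc and Pecam1 both at 1 or more, 50 held Inmt (92.6%), and of the 94 with neither, 16 did (17%). All 54 came from the Lgr5 mice, while 44 and 18 of the 94 came from Lgr6 mice 1 and 2. Within Lgr5 mice 1 and 2, Inmt was in 29 of 31 and 21 of 23 of the former wells and in 4 of 15 and 2 of 17 of the latter. Each of the other members was likewise in a larger share of the 54 wells than of the 94. The 94 fell to the authors' other rules, among them a lower limit on the number of expressed genes. No share over all genes was computed for these wells, so the counts show no trait particular to the members. More than 1 cell or free RNA in such wells was not tested.

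Of the 4 pool wells, the one of Lgr5 mouse 1 held 7 of the 9 members and the others held none of the 9. Its log2(TPM + 1) was 15.07 for Inmt, 11.05 for Npnt, 7.84 for Plin2, 7.61 for Vcam1 and 7.56 for Limch1. Tcf21 (2.4) and Ces1d (1.57) rested on 1 count each. How many cells each pool held is not in the labels.

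For Ces1d, the summed level was lower in the Pdgfra-positive cells of both Lgr5 mice and higher in those of both Lgr6 mice. The difference between the lines in the log2 fold change was -3.54 (SE 1.43), which did not pass the interaction test (edgeR quasi-likelihood, Benjamini-Hochberg adjusted p = 1.0). With a mouse left out, this difference ran from -4.92 (without Lgr6 mouse 1) to -2.16 (without Lgr6 mouse 2). In mean log2(TPM + 1) the Pdgfra-positive cells of Lgr5 mouse 2 were the higher, by 3.14 over 2 cells. The direction in that mouse thus depends on the weight of the cells.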

How the results depend on the processing

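Between Pdgfra-positive and Pdgfra-zero cells edgeR called 3 genes. The count was 1173 with DESeq2, 1172 with DESeq2 on the genes kept by filterByExpr (chosen after seeing the data), 6 with library size in place of TMM, 21 in the Lgr6 mice alone, 204 with limma on the mean log2(TPM + 1), 18 with limma on log2 of the mean TPM + 1 (Npnt and Inmt among them), 30 in thinned cells (Npnt, Vcam1, Inmt and Limch1 among them) and 17 without the Pdgfra-positive cells high in Acta2 (chosen after seeing the data). Leaving out a mouse gave 1 to 21. Without the replicate block the count was 6. For the members, with the fit in the Lgr6 mice alone and the identical one without Lgr5 mouse 1 both counted, 130 of the fold changes under an alternative kept their direction and their side of the threshold, 31 kept their direction and passed it, and 0 turned over. The log2 fold change of Ces1d was 0.88 with all 4 mice and 0.73 to 2.63 with a mouse left out, and that of Plin2 2.1 and 0.75 to 2.7. Lyz2 was not called without the cells high in Sftpc (chosen after seeing the data), and Hsd11b1 not without Lgr6 mouse 2. Vcam1 was at 9.21 to 15.85 and Inmt at 8.09 to 13.67 with a mouse left out. Cd34 was then at 6.87 to 10.45, Tcf21 at 6.85 to 9.39, Limch1 at 4.25 to 8.07 and Npnt at 3.35 to 5.39. Tcf21 could not be tested in thinned cells. Thinning left out 19 kept cells, 3 of them of Lgr5 mouse 2, which was not in this fit.

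Between the lines edgeR called 0 genes, with 1312 at an unadjusted p under 0.05. DESeq2 called 963, or 564 on the genes kept by filterByExpr (chosen after seeing the data; Inmt among them), limma on the mean level 639, edgeR with no filter 408 (Inmt and Ces1d among them) and edgeR in thinned cells 16. Leaving out a mouse gave 0 to 34, and the 34, without Lgr6 mouse 1, included Inmt. With the mouse number as a replicate block, edgeR called 0. The correlation of the deviations of mice with the same number was 0.0385, so the numbers were not taken to pair the mice. The log2 fold change of Ces1d was 1.25 to 3.75 with a mouse left out. That of Vcam1 was 7.07 without the Pdgfra-positive cells, and that of Inmt 4.06 without them and 0.56 with limma on the mean level, both turned over. That of Slc36a2 turned over without Lgr5 mouse 2 (0.22) and without Lgr6 mouse 2 (1.11), in a range from -3.14 to 1.11 with a mouse left out.

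For the interaction edgeR called 0 genes, with 382 at an unadjusted p under 0.05. DESeq2 called 199, or 245 on the genes kept by filterByExpr, with Vcam1 and Inmt among the 245. That second run was chosen after seeing the data. Calls from fits with a mouse left out are not read, since they leave 1 mouse in a line. The difference between the lines turned over for Tcf21 (-1.05 without Lgr6 mouse 2, up to 4.97 without another), Npnt (-0.24 without Lgr6 mouse 1, up to 2.79), Cd34 (0.57 without Lgr6 mouse 1, down to -9.75) and Limch1 (-2.72 without Lgr5 mouse 1, -0.35 without Lgr6 mouse 1, up to 6.79). The members whose mean level did not overlap between the lines numbered 4 in the kept cells, 7 over all single-cell wells, where 73.3% of all genes did not overlap, and 6 to 7 with a mouse left out, where 59.7% to 75.2% did not. Those whose detection share did not overlap numbered 5 in the kept cells (40.8% of all genes) and 9 over all wells (72.2%). Over all wells each of the 9 members was higher in the Lgr5 line in mean level and in share, as were 93.5% and 96.9% of all genes. Of those that did not overlap in the kept cells, this changed the sign for Npnt (0.33 in mean level, where the mice then overlapped, 13.2 percentage points in share), Limch1 (0.57 in mean level) and Cd34 (29.5 percentage points). Of those that overlapped, the sign of the mean difference also changed for Cd34 (-0.42 to 1.64), Plin2 (-0.35 to 1.58), Slc36a2 (-0.1 to 0.5) and Vcam1 (-0.05 to 0.43). The sign of the difference in share changed for Limch1 (-5.11 to 26.3), Slc36a2 (-0.766 to 14.2) and Tcf21 (-0.0419 to 20.5). The cause of these changes was not tested. The median counts of a kept cell were 263129 and 272729 in Lgr5 mice 1 and 2 and 332588 and 1537593 in Lgr6 mice 1 and 2. A gene at few counts, such as Tcf21, can be missed in the shallower cells.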
